A study of Mus musculus with 12 samples.

Results

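MLL-NRIP3 leukemia was compared with MLL-AF9 leukemia in cells whose Rictor gene was intact. The comparison used 6 of the 12 arrays of the series, namely the 3 control arrays of each model, chosen by the array titles and by the label that Rictor was wild type. The cells were mouse bone marrow leukemia cells that the labels call K+G–, sorted by flow cytometry after a first bone marrow transplantation, when the blood of the recipients held mainly CD45.2+ leukocytes. The labels describe the cells as bone marrow cells and also name peripheral blood as the host tissue. Total RNA was extracted with Trizol, labelled with biotin and hybridized to Affymetrix arrays. The other 6 arrays came from Rictor-deleted leukemia of the same models, and Rictor is an essential subunit of the kinase complex mTORC2. The series text names the effect of Rictor loss as its aim, and MLL-NRIP3 as a further model, so the direct comparison of the fusions is one that the design allows. The labels used here do not state how the fusions were introduced, nor the strain, age or number of mice. Whether each array holds RNA of its own mouse is also unstated, and the p-values therefore reflect array-to-array spread, which may be technical. In sorted bulk cells, fewer cells of a type and less RNA per cell cannot be told apart.

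MLL, encoded by Kmt2a, is a histone methyltransferase that keeps developmental genes active. Leukemic fusions retain its chromatin-binding part and join it to a partner, and MLL-AF9, whose partner is encoded by Mllt3, attracts transcription elongation factors to MLL target genes such as the Hoxa genes and Meis1. MLL-AF9 leukemia in mice resembles granulocyte and monocyte progenitors, whereas NRIP3 is a partner about which less is known.

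The sorted populations were first checked against their labels. Ptprc, the pan-leukocyte antigen CD45, was bright on every array, at 1699, 1909 and 1877 on the MLL-AF9 arrays and 1425, 1529 and 1889 on the MLL-NRIP3 arrays (normalized intensity in arbitrary units throughout). Kit, the receptor of stem cell factor, was present at 234 ± 43.1 and 286 ± 42.03 (mean ± SD, n = 3 each), and the groups overlapped. Ly6g was not measured by a probe set used here. Kmt2a did not pass by its brightest probe set (log2 difference 0.22, limma adjusted p = 0.25), and a second probe set lay the other way with separate groups (139 against 101, log2 −0.41, adjusted p = 0.051). The partner genes Mllt3 and Nrip3 were near the floor on all 6 arrays, with no probe set above 7 in either group, so these probe sets did not show which fusion the cells carried. Rictor was at 106 ± 5.51 and 92.7 ± 21.3 by its brightest probe set (adjusted p = 0.355), but its probe sets disagreed: one was lower in MLL-NRIP3 (39.7 against 23.2) and another higher (11.6 against 39.4). Xist was bright and Eif2s3y near the floor in both groups, though 1 of 3 Xist probe sets was lower in MLL-NRIP3 (1381 against 709, log2 −1.01, adjusted p = 0.0117).

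The 2 models also differed in the scale of their deposited values. The median deposited intensity was 8.16 to 8.36 on the MLL-AF9 control arrays and 13.6 to 13.9 on the MLL-NRIP3 control arrays. All 6 arrays were therefore quantile normalized together before testing, and model and array set cannot be told apart. Arrays of the same model correlated at 0.997 in MLL-AF9 and at 0.982 to 0.991 in MLL-NRIP3, against 0.955 to 0.968 between models. The median SD over genes was 0.08 on the log2 scale in MLL-AF9 and 0.14 in MLL-NRIP3. Within MLL-NRIP3, arrays 1 and 2 stood apart in technical measures. Their ratio of 5′ to 3′ Gapdh signal was 0.562 and 0.738, whereas it was 0.952 on array 3 and 0.901 to 1.04 in MLL-AF9. The mean log2 signal of hybridization controls was 11.09 and 10.49 on those arrays, 9.35 on array 3 and 8.79 to 9.23 in MLL-AF9. Array 3 in turn was the lowest of the MLL-NRIP3 arrays for many maturation genes described below.

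Many small differences and fewer large ones separated the fusions. Of 12551 genes tested with limma, 5634 (44.9%) passed a Benjamini-Hochberg adjusted p of 0.05, of which 3144 (25%) were higher and 2490 (19.8%) lower in MLL-NRIP3. Because so many genes passed, a gene is said below to rise, fall or change only if it also differed by at least 2-fold on the log2(intensity + 16) scale, on which the differences of dim genes are understated. This held for 729 genes, 5.81% of those tested, with 401 higher (3.19%) and 328 lower (2.61%). In all 729 the 3 values of one model lay above the 3 of the other, as they did in 58% of all genes tested. Separate groups, where given below, are therefore no further evidence for a gene that changed at least 2-fold. The median log2 difference over the genes tested was 0.04. Of the 729 genes, 377 had further probe sets tested. Of these 645 probe sets, 567 had the same sign, 451 were called the same way and 20 the opposite way. Below, further probe sets are given for some genes only. The balance of directions rested on the scaling: of the 2-fold calls, 55.0% were higher after quantile normalization, 41.7% after median scaling and 92.8% on the deposited values as they stand.

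The largest increase in MLL-NRIP3 was that of Dlk1, an imprinted gene encoding a membrane protein related to Notch ligands. Its intensity was 4.48, 3.72 and 5.53 on the MLL-AF9 arrays and 1296, 248 and 2296 on the MLL-NRIP3 arrays, a 45.1-fold difference (log2 5.497 ± 0.67, SE, adjusted p = 0.000724). All MLL-AF9 arrays were at the floor, and MLL-NRIP3 array 2 was well below arrays 1 and 3. The log2 difference was 6.36 without MLL-NRIP3 array 2 and 4.78 without array 3. Meg3, the maternally expressed noncoding RNA of the same imprinted locus, followed with 17.4, 15.4 and 17.1 against 1269.8, 337 and 1748 (28.5-fold, adjusted p = 0.000422). Array 2 was again the lowest of its group, and the log2 difference moved from 4.83 to 5.53 without it. Meg3 probe sets differed in size, from 0.45 to 5.59 on the log2 scale, and all were higher in MLL-NRIP3.

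The next largest increases included genes of innate sensing and immediate early transcription. Clec4e, the receptor Mincle that senses mycobacterial and fungal glycolipids, went from 9.25, 9.33 and 12.1 to 493, 327 and 502 (17.1-fold, adjusted p = 1.00e-05). Egr1, a zinc finger transcription factor induced within minutes of a stimulus, was at 10.05, 5.22 and 6.65 against 262, 268 and 497. Dusp1, a phosphatase that switches off MAP kinases, was at 24.3, 14.1 and 22.1 against 463, 423 and 446, with the MLL-NRIP3 arrays close together. Flt3, the receptor tyrosine kinase of early progenitors and dendritic cell precursors, was at 62.4, 51.9 and 55.4 against 1274, 602 and 547 (10.6-fold, adjusted p = 0.000159), and array 1 was the highest. The chemokine Ccl9 rose from 139, 103 and 87.2 to 1695, 1025 and 1192.

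Others of the 15 largest increases were Cgnl1, a junction protein (12.3-fold), Hacl1, a peroxisomal lyase (12.2-fold), the mucin Muc13 (12.1-fold), the homeobox gene Irx5 (11.005-fold), Ddx4, a germ cell RNA helicase (10.1-fold), Marcksl1, an actin-regulating kinase substrate (9.50-fold), and the ribonuclease Rnase4 (9.43-fold). Their adjusted p-values lay between 3.72e-06 for Marcksl1 and 0.000617 for Ddx4. Cgnl1 rested on 1 bright probe set: of its other probe sets one gave a log2 difference of 0.77 and the other −0.04.

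The largest decrease was that of Satb1, a chromatin organizer of lymphoid and stem cells. Its intensity was 699, 551 and 637 in MLL-AF9 and 32.6, 11.3 and 10.7 in MLL-NRIP3 (log2 −4.29 ± 0.23, 19.5-fold lower, adjusted p = 3.18e-05), and 3 further probe sets were lower as well, by 2.10 to 4.06 in the log2 value. Epha7, an ephrin receptor, fell from 375, 329 and 367 to 6.22, 6.91 and 4.37 (17.1-fold, adjusted p = 3.19e-06), which left it at the floor on every MLL-NRIP3 array. Il17rb, a receptor for interleukin 25, went from 362, 239 and 293 to 5.79, 7.75 and 6.59 (13.7-fold). Eya1, a phosphatase and transcriptional coactivator of organ development, went from 250.04, 262 and 295 to 6.82, 7.12 and 6.08 (12.5-fold). P2ry14, a receptor for UDP-glucose found on hematopoietic progenitors, went from 246, 189 and 208 to 3.91, 4.22 and 3.40 (11.5-fold). These genes were bright on all 3 MLL-AF9 arrays and at or near the floor on all 3 MLL-NRIP3 arrays.

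The desmosomal protein Dsp fell less evenly, from 685, 707 and 691 to 111, 67.5 and 5.49 (11.6-fold, adjusted p = 0.00194). MLL-NRIP3 array 3 was at the floor while arrays 1 and 2 were not, and the log2 difference moved from −3.54 to −2.78 without array 3. The remaining largest decreases were Prg3 and Prg2, eosinophil granule proteins (11.8-fold and 7.84-fold lower), Dennd5b, a regulator of Rab GTPases (10.6-fold), the interferon-inducible Trim34a and Trim30d (10.4-fold and 9.03-fold), Cd79b of the B cell receptor (9.06-fold), the ubiquitin ligase Rnf128 (8.41-fold), the granulocyte glycoprotein Olfm4 (7.98-fold) and Epsti1, another interferon-inducible gene (7.95-fold). Trim34a is uncertain, because it belongs to a family of near-identical genes and a further probe set was called 0.20 higher (adjusted p = 0.024 among probe sets).

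**Figure D1:**
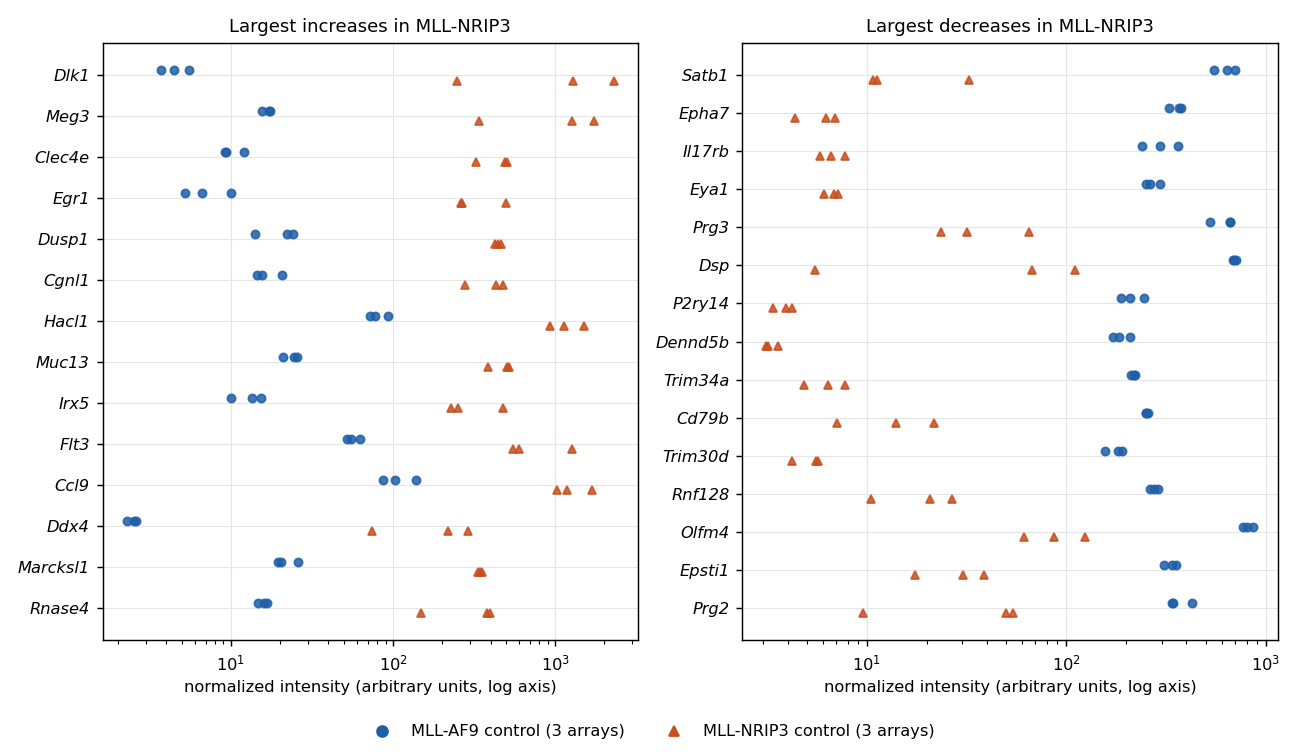
Normalized intensity (log axis, arbitrary units) of 14 of the 15 largest increases (left) and 15 largest decreases (right) in MLL-NRIP3; each circle is an MLL-AF9 control array and each triangle an MLL-NRIP3 control array. The groups are separate in every row because the genes were chosen that way. Dsp and Dlk1 show the widest spread among the 3 MLL-NRIP3 arrays.

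Monocyte and macrophage genes were on balance lower in MLL-NRIP3. Of 31 listed genes measured and 27 tested, 11 fell and 3 rose, 51.9% of those tested, against 5.81% of all genes. The median log2 difference of the 31 was −0.42, beside 0.01 over all genes measured. Vcam1, the adhesion molecule that marks resident macrophages, was at 333, 476 and 445 in MLL-AF9 and 80.5, 71.5 and 51.8 in MLL-NRIP3 (5.17-fold lower, adjusted p = 0.000102). Other Vcam1 probe sets gave −0.85 and −0.02. The complement chain C1qb went from 81.1, 57.7 and 47.1 to 4.66, 4.42 and 4.43 (3.74-fold), and C1qa and C1qc fell with it, by 1.29 and 1.39 in log2 units. C1qb was tested through its MLL-AF9 values, since in MLL-NRIP3 it lay below the intensity of 7.48 that the tests required. Cx3cr1, the fractalkine receptor of patrolling monocytes, went from 108, 59.3 and 84.4 to 20.3, 12.1 and 6.71 (3.43-fold). In each of these genes the lowest MLL-AF9 value was above the highest MLL-NRIP3 value.

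Csf1r, the receptor of the macrophage growth factor, and Mpeg1, the macrophage pore-forming protein, were lower with a wide spread. Csf1r was at 1725, 1489 and 1613 in MLL-AF9 and 907, 681 and 203 in MLL-NRIP3 (log2 −1.64 ± 0.46, adjusted p = 0.0215). MLL-NRIP3 array 3 was the lowest, and without it the log2 difference was −1.02 (adjusted p = 0.000489). Leaving out any MLL-AF9 array ended the call, at adjusted p-values of 0.0671, 0.0550 and 0.0663 for arrays 1, 2 and 3. Mpeg1 was at 798, 783 and 730.2 against 543, 314 and 84.6 (log2 −1.57, adjusted p = 0.0418). Its call was lost without any MLL-AF9 array (adjusted p 0.106, 0.102 and 0.100 for arrays 1, 2 and 3) or without MLL-NRIP3 array 2 (0.0637), and the log2 difference was −0.87 without MLL-NRIP3 array 3. Without normalization it was −1.07 and did not pass (adjusted p = 0.0996).

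The genes of this list that rose were Ccr2, Cd14 and Ccl9. Ccr2, the receptor that brings monocytes out of the marrow, was at 48.6, 50.6 and 42.6 in MLL-AF9 and 423, 172 and 350.4 in MLL-NRIP3 (4.93-fold higher, adjusted p = 0.000719). Its further probe sets gave log2 differences of 1.25, 0.85 and −0.01. Cd14, the coreceptor for lipopolysaccharide, was at 18.9, 35.9 and 20.95 against 185.6, 143 and 67.2 (3.41-fold, adjusted p = 0.0032), with array 3 the lowest of its group. Ccl9, given above, was the third. Of other defining genes, Adgre1, encoding F4/80, did not pass (196 ± 28.4 against 144 ± 31.9, log2 −0.42), and Lyz2, encoding lysozyme, passed the test as lower without reaching 2-fold (log2 −0.95, adjusted p = 0.0257). Without MLL-NRIP3 array 3 the list had 8 lower and 4 higher 2-fold calls, and with that array as the only MLL-NRIP3 array it had 14 lower and 4 higher. Here and below, calls with 1 MLL-NRIP3 array take their spread from MLL-AF9 alone and assume that the lone array varies like it. On the deposited values without normalization it had 5 lower and 3 higher.

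MHC class II genes, whose products present peptides on dendritic cells, B cells and macrophages, did not move together. Of 23 genes of the class II and dendritic cell list measured and 19 tested, 5 fell and 2 rose. This was 36.8% of those tested, beside 5.81% of all genes, and the median log2 difference was −0.08. The class II α chain H2-Aa was at 321, 276 and 254 in MLL-AF9 and 33.1, 34.2 and 10.7 in MLL-NRIP3 (7.39-fold lower, adjusted p = 0.000158), and its 2 further probe sets were lower too. The β chain H2-Eb1 was at 128, 116 and 94.2 against 13.9, 22.9 and 16.5 (3.82-fold, adjusted p = 0.000105). The invariant chain Cd74 was at 102, 98.2 and 88.8 against 20.1, 20.99 and 12.2 (3.35-fold). These 3 genes were lower on every MLL-NRIP3 array. H2-DMa, which loads peptides onto class II, went the other way, with 211, 263 and 205 in MLL-AF9 and 698, 531 and 514 in MLL-NRIP3 (2.46-fold higher, adjusted p = 0.000515). H2-Ab1 gave 117 ± 13.6 and 98.7 ± 28.02, with overlapping groups (adjusted p = 0.336). Ciita, the master coactivator of class II genes, was below the filter on dim genes, at 6.40 ± 1.28 and 8.33 ± 0.945. Tcf4, a factor of plasmacytoid dendritic cells, fell 2.41-fold, and Cd209a, a dendritic cell lectin, fell 2.03-fold. Without MLL-NRIP3 array 3 the list had 5 genes that rose and 4 that fell.

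The promoters of the 2 class II chains that fell are shown because both hold the Y box, a conserved class II promoter element, searched as CTGATTGG on both strands. They are the RefSeq sequences of assembly GRCm38.p6, 250 bases before to 50 after the gene start, printed 5′ to 3′ on the strand of the gene, with motif matches in capitals. H2-Aa lies at chr17:34287774-34288073 on the minus strand, and its first capitals are the cAMP response element TGACGTCA. H2-Eb1 lies at chr17:34305617-34305916 on the plus strand.
H2-Aa: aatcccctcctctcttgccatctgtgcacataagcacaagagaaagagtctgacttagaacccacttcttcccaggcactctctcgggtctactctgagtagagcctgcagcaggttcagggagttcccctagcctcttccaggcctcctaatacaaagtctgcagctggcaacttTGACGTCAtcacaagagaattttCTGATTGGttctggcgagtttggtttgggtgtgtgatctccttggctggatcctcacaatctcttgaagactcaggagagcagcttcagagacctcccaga
H2-Eb1: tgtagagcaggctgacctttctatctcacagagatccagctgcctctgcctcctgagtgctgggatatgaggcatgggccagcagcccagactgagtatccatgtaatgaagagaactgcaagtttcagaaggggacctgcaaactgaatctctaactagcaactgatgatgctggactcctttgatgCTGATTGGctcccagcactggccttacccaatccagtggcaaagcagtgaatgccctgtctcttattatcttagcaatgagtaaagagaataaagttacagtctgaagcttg
The Y box letters occurred in 4 of the 17 class II and dendritic cell genes with a promoter in the table, H2-Aa, H2-Eb1, H2-Oa and Irf8. They also occurred in 5 of 33 genes of the immediate early and handling stress list described below, Hspa1a, Hspa1b, Hspa5, Ier5 and Klf6. Of all 32851 promoters, 4.10% held them. Irf8, which directs monocyte and dendritic cell fates, was at 708, 571 and 654 in MLL-AF9 and 496, 457 and 137 in MLL-NRIP3 and did not pass (log2 −0.98, adjusted p = 0.0854).

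Of 15 primary granule and promyelocyte genes measured and 14 tested, 3 rose and 1 fell. This was 28.6% of those tested, beside 5.81% of all genes, and the median log2 difference was −0.03. Ctsg, the protease cathepsin G, was at 1209, 1458 and 1204 in MLL-AF9 and 4330.3, 3993 and 4881 in MLL-NRIP3 (3.38-fold higher, adjusted p = 4.10e-05). Ms4a3, a marker of granulocyte and monocyte progenitors, was at 376, 458 and 353 against 1724, 1459.7 and 1018 (3.38-fold), and the glutathione transferase Gstm1 rose 3.96-fold. All 3 rose on every MLL-NRIP3 array, although Gstm1 belongs to a family of similar genes and 1 of its probe sets did not change. Elane, neutrophil elastase, was at 2114, 2003 and 2042 against 1092, 2432 and 1498 and did not pass (adjusted p = 0.248). Mpo, myeloperoxidase, was at 3581, 2563 and 3454 in MLL-AF9, but at 763, 2731 and 62.6 in MLL-NRIP3, where array 2 reached the MLL-AF9 level and array 3 was far below it (log2 −2.53, adjusted p = 0.0885). The lectin Fcnb also spread widely in MLL-NRIP3, with 259.8, 272 and 243 against 225, 52.9 and 14.6 (log2 −1.78, adjusted p = 0.048). Its call was lost on leaving out any MLL-AF9 array or MLL-NRIP3 array 2 or 3, with adjusted p-values from 0.0609 to 0.117, and its log2 difference was −2.57 without MLL-NRIP3 array 1 and −1.09 without array 3. Without normalization it was −1.31 and did not pass (adjusted p = 0.0973).

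Of 27 mature neutrophil genes, all tested, 1 rose and 2 fell (11.1%, beside 5.81% of all genes), with a median log2 difference of −0.16. Abundant neutrophil genes overlapped between the models. S100a8, a calprotectin subunit, was at 4134, 3442 and 3394 in MLL-AF9 and 4479, 2506 and 1084 in MLL-NRIP3. Ltf, lactoferrin, was at 356, 151 and 138 against 624, 73.2 and 15.2. In these genes, and in Ngp and Camp, MLL-NRIP3 array 1 was the highest and array 3 the lowest of the 3, and adjusted p-values ran from 0.107 for Camp to 0.656 for Ngp. The summed intensity of the list ranged from 19221 to 25031 in MLL-AF9 and from 11879 to 27446 in MLL-NRIP3. Cd177, a neutrophil surface antigen, was the one that rose, with 112, 69.8 and 65.2 against 337, 175 and 254 (2.74-fold, adjusted p = 0.00283). Olfm4, a marker of a neutrophil subset, was at 769, 808 and 865 against 124, 61.4 and 87.1 (adjusted p = 6.56e-05), and Anxa1, an anti-inflammatory annexin, fell 2.12-fold. Without MLL-NRIP3 array 3, 2 genes of the list rose and 2 fell at least 2-fold. With that array as the only MLL-NRIP3 array, 2 rose and 8 fell.

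Of 9 eosinophil genes measured, 4 fell, 4 had differences above 0, and the median log2 difference was −0.14. The 4 that fell were the only ones past the filter on dim genes, and Il17rb passed it through its MLL-AF9 values. Prg2, the eosinophil major basic protein, was at 344, 426 and 339 in MLL-AF9 and 53.7, 49.8 and 9.59 in MLL-NRIP3 (adjusted p = 0.000648). Its relative Prg3 was at 525, 664 and 659 against 31.9, 64.9 and 23.4 (adjusted p = 8.00e-05), and Siglecf, the eosinophil Siglec, at 198, 268 and 244 against 55.3, 92.1 and 57.7 (3.03-fold lower). The fourth was Il17rb, given above. No MLL-NRIP3 value reached the lowest MLL-AF9 value. Epx, eosinophil peroxidase and the lineage's most specific enzyme, was near the floor on all arrays (5.91 ± 1.21 and 3.88 ± 0.445) and was not tested. The summed intensity of the list was 1455 to 1618 in MLL-AF9 and 132 to 242 in MLL-NRIP3.

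Mast cell and basophil genes moved both ways. Mcpt8, a basophil protease, was at 28.3, 19.1 and 26.2 in MLL-AF9 and 137, 144 and 173 in MLL-NRIP3 (4.13-fold higher, adjusted p = 6.86e-05). Hdc, the enzyme that makes histamine, was at 24.3, 22.1 and 24.04 against 133, 129 and 152 (3.90-fold higher). Cpa3, the mast cell carboxypeptidase, was at 433, 379 and 345 against 78.4, 88.1 and 89.3 (3.95-fold lower, adjusted p = 3.33e-05). These 3 were the ones that changed at least 2-fold of 16 genes measured and 7 tested, 42.9% beside 5.81% of all genes. Genes below the filter on dim genes were not tested and could not be called. Ms4a2, which encodes the β chain of the high-affinity IgE receptor, was dim in both models (7.97 ± 1.22 and 16.1 ± 2.95) and was called higher by less than 2-fold (log2 0.42).

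B lineage genes were lower almost throughout, most of them by less than 2-fold. Of 21 measured and 16 tested, 15 passed the test as lower, against 19.8% of all genes, and 1, Il7r, as higher. Of these, 4 fell at least 2-fold (25% of those tested, beside 5.81% of all genes) and none rose at least 2-fold. The median log2 difference was −0.54. Cd79b, the signalling β chain of the B cell receptor, was at 257, 251 and 249 in MLL-AF9 and 21.6, 14.04 and 7.05 in MLL-NRIP3 (adjusted p = 3.22e-05). Vpreb3, a pre-B cell chaperone, was at 124, 102 and 85.2 against 8.02, 8.64 and 8.11 (4.89-fold lower). Both were separate by a wide margin. Ighm, the μ heavy chain, was at 1584, 1401 and 1478 against 939, 637 and 161 (log2 −1.65, adjusted p = 0.0361), but of its other probe sets one was called 0.21 higher. Without any MLL-AF9 array the call of Ighm was lost (adjusted p 0.0978, 0.0835 and 0.0952 for arrays 1, 2 and 3), and without MLL-NRIP3 array 3 its log2 difference was −0.93. The call of Ighm was also lost without normalization (log2 −1.15, adjusted p = 0.0816). Defining B cell factors were dim in both models: Pax5 was at 22.7 ± 3.27 and 7.62 ± 1.26, Cd79a at 18.2 ± 3.88 and 5.87 ± 0.904, and Ebf1 at 6.61 ± 0.740 and 3.66 ± 0.0898, with no test for the last. Cd79a passed the filter on dim genes through its MLL-AF9 values. The summed intensity of the list was 2087 to 2344 in MLL-AF9 and 307 to 1139 in MLL-NRIP3. Without MLL-NRIP3 array 3, and likewise without normalization, 2 genes of the list fell at least 2-fold.

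In lists of other cell types that the sorted fraction could hold, 8.33% of erythroid, 12.5% of megakaryocyte and 16.7% of endothelial and stromal genes tested changed at least 2-fold, beside 5.81% of all genes. These shares are 1 or 2 genes each, and the part of such cells in the differences was not tested. No T and NK gene of 15 tested changed at least 2-fold, and Cd3e was at 13.5 ± 6.01 and 8.74 ± 0.359. Of 12 erythroid genes tested 1 fell, Rhd, and the globin Hba-a1 was at the floor (3.98 and 4.70). Among 16 megakaryocyte genes tested, the tetraspanin Cd9 rose 2.19-fold and Itga2b, the platelet integrin CD41, fell 2.00-fold, whereas the platelet chemokines Pf4 and Ppbp were near the floor in both models. Of 12 endothelial and stromal genes tested, Acta2 rose and Vcam1 fell, while Cdh5, Kdr and Col1a1 stayed under 15 on average. Acta2, smooth muscle actin, was at 14.6, 14.6 and 14.9 against 31.8, 31.3 and 109.9 (log2 1.10, adjusted p = 0.0316), and its call was lost without any MLL-AF9 array (adjusted p 0.0838, 0.0807 and 0.0835 for arrays 1, 2 and 3).

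**Figure D2:**
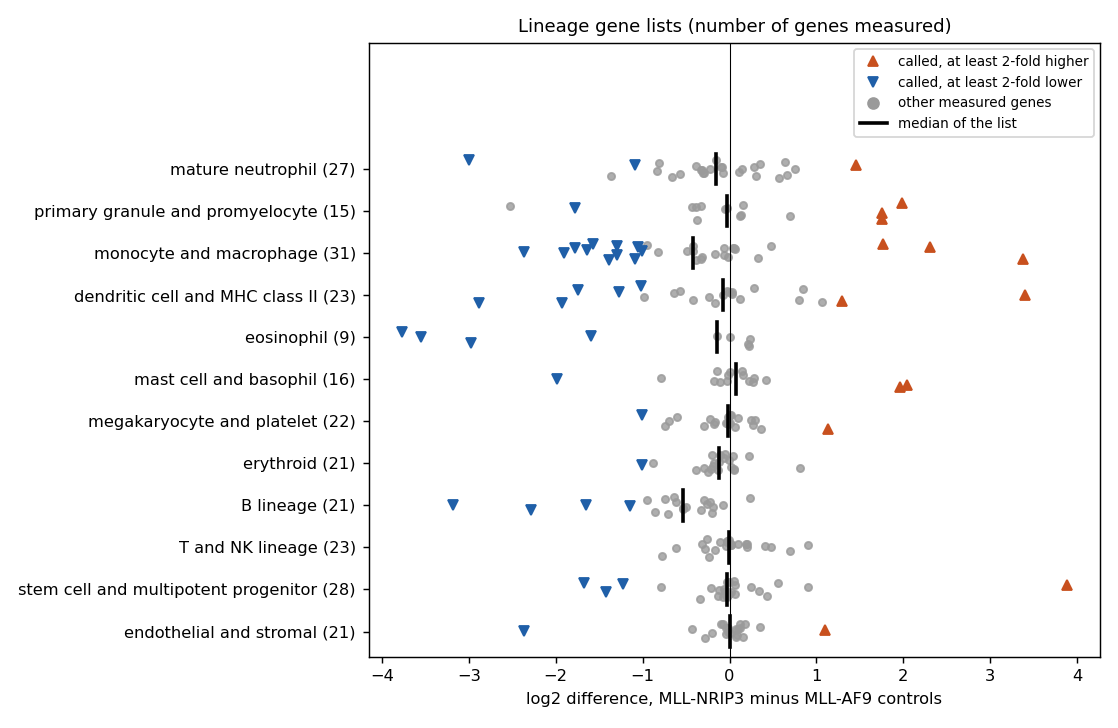
Log2 difference, MLL-NRIP3 minus MLL-AF9 controls, of every measured gene of 12 lineage lists (number measured in parentheses); triangles mark genes called at an adjusted p under 0.05 with at least a 2-fold difference, and black bars the list medians. The B lineage and the monocyte and macrophage lists have the lowest medians, −0.54 and −0.42, and the 4 eosinophil genes that passed the filter lie below −1.

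Among stem and progenitor genes, 3 fell and 1 rose of 18 tested, 22.2% beside 5.81% of all genes. Cd34, the sialomucin of early progenitors, was at 677, 603 and 679 in MLL-AF9 and 313, 239 and 167 in MLL-NRIP3 (2.69-fold lower, adjusted p = 0.00109). Mecom, which encodes the stem cell factor EVI1, was at 149, 30.5 and 72.8 against 26.8, 5.82 and 6.61, with arrays that spread widely in both models (log2 −1.67, adjusted p = 0.0177). Its call was lost without MLL-AF9 array 3 (adjusted p = 0.0564) or MLL-NRIP3 array 2 (0.0577). The thioredoxin inhibitor Txnip fell 2.33-fold. Egr1, given above, was the gene that rose, and the stem cell markers Procr and Slamf1 were dim in both models, at 6.40 and 7.37 for Procr and 8.53 and 7.92 for Slamf1.

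Of 45 receptor tyrosine kinase and cytokine receptor genes tested, 4 rose and 3 fell at least 2-fold, 15.6% beside 5.81% of all genes. Without the fold limit 17 were called higher and 8 lower, beside 25% and 19.8% of all genes. Flt3, given above, was the largest increase. Il6st, the gp130 signalling chain shared by cytokines such as oncostatin M, was at 14.95, 12.3 and 6.92 in MLL-AF9 and 98.3, 37.9 and 59.8 in MLL-NRIP3 (2.85-fold higher, adjusted p = 0.00255). Its further probe sets gave log2 differences of 0.39 and 0.09. Osmr, the receptor chain that pairs with Il6st, was at 3.03, 3.11 and 3.38 against 47.5, 8.58 and 63.1 (2.60-fold higher, adjusted p = 0.0187). Array 2 was the lowest MLL-NRIP3 array for both, and the Osmr call was lost without any MLL-AF9 array (adjusted p 0.0539, 0.0528 and 0.0560 for arrays 1, 2 and 3) or without MLL-NRIP3 array 1 (0.0596). Il18rap rose 2.22-fold. The growth factor receptor Igf1r fell from 399, 385 and 409.6 to 172, 255 and 90.6 (2.36-fold, adjusted p = 0.0105). Further Igf1r probe sets gave log2 differences from −1.34 to −0.15. Csf3r, the granulocyte colony stimulating factor receptor, did not pass (199 ± 16.2 and 219.5 ± 51.1, adjusted p = 0.594). Csf2rb, the common β chain, was higher by less than 2-fold (645 ± 81.2 and 1128 ± 48.3, adjusted p = 0.000897).

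Lectin and paired immune receptors included large changes in both directions. Of 45 tested, 5 rose and 8 fell, 28.9% beside 5.81% of all genes. Beside Clec4e, its partner Clec4d was at 15.9, 16.02 and 17.3 in MLL-AF9 and 238, 99.3 and 226 in MLL-NRIP3 (5.92-fold higher, adjusted p = 0.000457). Cd300ld, an activating receptor of myeloid cells, was at 17.6, 13.7 and 11.97 against 142, 69.8 and 276 (5.22-fold higher), with array 3 the highest. The inhibitory Siglec Cd33 rose 2.29-fold and Trem1, an amplifier of neutrophil inflammation, 2.02-fold. Klrb1f, an NKR-P1 lectin receptor, was at 379, 572 and 459 against 88.7, 84.3 and 60.1 (5.17-fold lower, adjusted p = 0.000105). Clec2i and Clec2d, lectins of the family that NKR-P1 receptors bind, fell 2.50-fold and 2.90-fold, and Cd200r1, an inhibitory receptor, fell 2.51-fold.

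Adhesion and homing molecules changed in a few members. Itga1, the collagen-binding integrin chain, was at 329, 346 and 333 in MLL-AF9 and 71.5, 68.8 and 10.4 in MLL-NRIP3 (6.07-fold lower, adjusted p = 0.00206), with MLL-NRIP3 array 3 at the floor. It and Itga2b were the 2 of 19 integrin genes tested that fell (10.5%, beside 5.81% of all genes). No integrin gene rose, although 4 did without normalization. Itga4, the integrin chain that binds Vcam1, did not pass (421 ± 29.8 and 381 ± 70.4, adjusted p = 0.397). Of 17 chemoattractant receptors tested, Ccr2 and Ccr1 rose and P2ry14 and Cx3cr1 fell, 23.5% beside 5.81% of all genes. Ccr1 was at 61.4, 71.4 and 50.1 against 205, 173 and 292 (3.07-fold). Cxcr4, which retains cells in the marrow, did not pass (679.6 ± 47.3 and 589.8 ± 125, adjusted p = 0.264).

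Of 90 other CD antigens and adhesion molecules tested, 8 rose and 5 fell, 14.4% beside 5.81% of all genes. Toll-like receptors were among those that rose: Tlr1, a sensor of bacterial lipopeptides, was at 15.4, 11.6 and 8.22 in MLL-AF9 and 95.97, 107 and 110.1 in MLL-NRIP3 (4.35-fold, adjusted p = 3.53e-05), and Tlr13, a sensor of bacterial ribosomal RNA, rose 3.30-fold. The SLAM-family receptor Cd244a rose 3.22-fold, although its other probe set did not (log2 0.06), and the adhesion molecule Icam1 rose 2.40-fold. Ly6k, a Ly6-family surface protein, was at 94.1, 181 and 125 against 6.31, 11.3 and 14.8 (5.45-fold lower). Nt5e, the ectoenzyme CD73 that makes adenosine, was at 78.5, 96.2 and 92.4 against 11.6, 12.7 and 5.15 (4.09-fold lower, adjusted p = 7.87e-05). Its further probe sets gave log2 differences of −0.32 and −0.19. Alcam fell 2.23-fold. The values of Tlr1, Ly6k and Nt5e did not overlap between the models, as held for all 729 genes that changed at least 2-fold.

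Of 8 Hoxa genes tested, 7 passed the test as higher in MLL-NRIP3, in varying degree, beside 25% of all genes, a share that moved with the scaling. Over all clusters 33 Hox genes were measured and 17 tested, of which 3 rose and 1 fell, 23.5% beside 5.81% of all genes. Hoxa5 was at 104, 70.8 and 102 in MLL-AF9 and 323, 325 and 515 in MLL-NRIP3 (3.68-fold higher, adjusted p = 0.000465). Hoxa3 was at 23.02, 20.6 and 24.7 against 90.4, 70.5 and 88.5 (2.55-fold), and Hoxa11 at 4.26, 3.90 and 2.92 against 68.7, 47.3 and 26.3 (3.10-fold), where the MLL-AF9 arrays were at the floor. Smaller differences that passed the test were those of Hoxa7 (log2 0.88, adjusted p = 0.00575), Hoxa4 (0.65, 0.00374) and Hoxa2 (0.34, 0.0119), the last in dim signals. Hoxa9, the Hox gene most tied to MLL leukemia, was at 1568, 1412 and 1482 against 2071, 1904 and 2615. Its log2 difference of 0.55 passed (adjusted p = 0.00727) but was 0.28 with median scaling, which ended the call (adjusted p = 0.0905), as did averaging its probe sets (log2 0.37, adjusted p = 0.0886). Hoxa10 did not pass (log2 0.17, adjusted p = 0.409). Hoxa13 and Hoxa11os were below the filter, at 4.72 and 3.63 and at 4.24 and 5.42. Hoxb2 was the Hox gene that fell, from 24.7, 78.1 and 35.7 to 9.77, 10.4 and 7.25 (2.32-fold).

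The Hox cofactors and other homeobox genes did not follow one direction. Meis1, the cofactor that cooperates with Hoxa9 in leukemia, was at 173, 150.5 and 189 in MLL-AF9 and 174, 235 and 313 in MLL-NRIP3, with overlapping groups (log2 0.43, adjusted p = 0.105). Pbx3, a second cofactor, did not pass (log2 0.23, adjusted p = 0.409). Of 31 homeobox and related factors tested, 4 rose and 4 fell, 25.8% beside 5.81% of all genes. Irx5 was at 15.4, 9.98 and 13.6 against 479, 251 and 228 (adjusted p = 0.000101). Hopx, an atypical homeodomain protein of quiescent stem cells, was at 126, 209.9 and 184 against 522, 553 and 483 (2.88-fold higher), and Six4 and Zhx2 rose 2.65-fold and 2.25-fold. Dach1, a repressor of the network that includes Eya proteins, fell from 127, 111 and 141 to 26.4, 47.9 and 20.99 (3.06-fold, adjusted p = 0.000788). Further Dach1 probe sets gave log2 differences of −0.85 and −0.27. Zeb1, a repressor of epithelial genes, fell 2.50-fold, although a further probe set did not (log2 0.11). Satb1 and Eya1, given above, completed the 4 that fell.

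Of 42 myeloid lineage factors tested, Klf2 and Bhlhe40 rose, and Mycn, Myc, Runx1 and Cebpd fell, 14.3% beside 5.81% of all genes. Spi1, which encodes PU.1, was at 354 ± 34.8 and 318 ± 18.6 and did not pass (adjusted p = 0.271). Cebpa and Cebpb, which drive granulocyte and monocyte genes, were higher by less than 2-fold (log2 0.66 and 0.72, adjusted p = 0.00291 and 0.00101). Klf2, a factor of quiescent leukocytes, was at 46.7, 56.1 and 38.5 in MLL-AF9 and 489, 425 and 206 in MLL-NRIP3 (5.86-fold higher, adjusted p = 0.000536), and Bhlhe40 rose 2.03-fold. Mycn was at 2835, 1767 and 2519 against 557, 548 and 759.6 (3.72-fold lower, adjusted p = 0.000343), though its other probe set did not fall (log2 0.16). Myc was at 331, 280.04 and 304 against 76.4, 202 and 165 (2.08-fold lower, adjusted p = 0.0183). The Myc call was lost without MLL-AF9 array 1 (adjusted p = 0.0646) or array 3 (0.0588), and without normalization (log2 −0.56, adjusted p = 0.105). Runx1, a core factor of blood formation, was at 216, 238 and 302 against 94.1, 111 and 90.03 (2.33-fold lower), with 5 further probe sets between −0.75 and 0.03 in log2 units. Cebpd fell 2.04-fold by its brightest probe set, and its other probe set did not (log2 0.04).

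Of 32 stem cell, erythroid and megakaryocyte factors tested, 2 rose and 3 fell, 15.6% beside 5.81% of all genes. Zbtb16, which encodes the zinc finger protein PLZF, was at 105, 87.4 and 74.6 in MLL-AF9 and 6.65, 14.4 and 11.7 in MLL-NRIP3 (3.90-fold lower, adjusted p = 0.000107). Ets2 rose 2.03-fold. Gata2 was lower by less than 2-fold (log2 −0.78, adjusted p = 0.004), and Myb, which MLL leukemia needs, did not pass (log2 −0.18, adjusted p = 0.103). Among 23 lymphoid factors tested none rose and 2 fell, Tcf4 and Ikzf3 (8.7%, beside 5.81% of all genes). Ikzf3 was at 31.5, 73.2 and 45.6 against 12.1, 10.2 and 11.6 (2.34-fold lower), but a second probe set of it was called 0.24 higher.

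**Figure D3:**
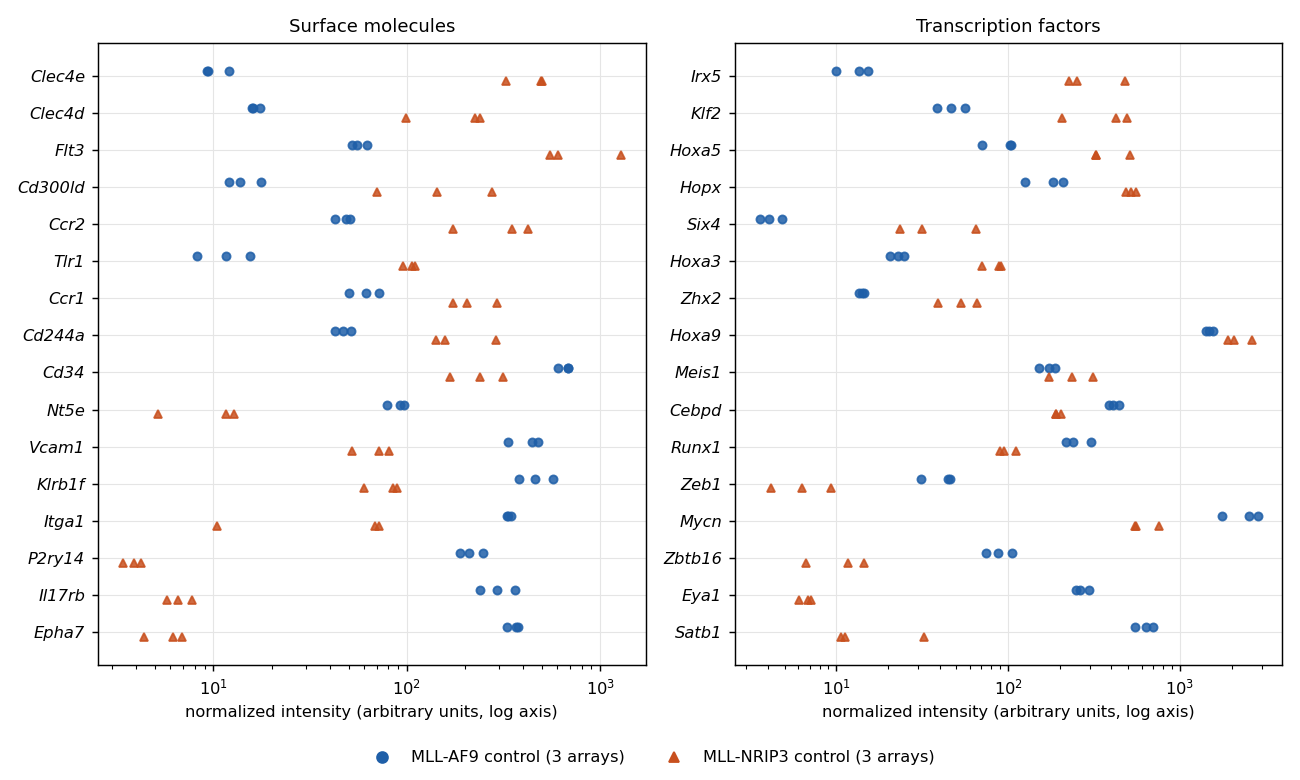
Normalized intensity (log axis, arbitrary units) of 16 surface molecules (left) and 16 transcription factors (right); circles are the 3 MLL-AF9 control arrays and triangles the 3 MLL-NRIP3 control arrays. The groups are separate in every row except Meis1, where one MLL-NRIP3 array lies among the MLL-AF9 arrays.

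Genes reported as MLL fusion targets changed in both directions. Of 28 tested, 3 rose and 5 fell, 28.6% beside 5.81% of all genes, and the median log2 difference of the 29 measured was 0.13. Without MLL-NRIP3 array 3, 3 rose and 3 fell and the median was −0.02. Those that rose were Flt3, Hoxa5 and Hmgb3, a chromatin protein of progenitors (118, 91.5 and 77.3 against 265, 295 and 437, 3.09-fold). Those that fell were Satb1, Eya1, Mecom, Bcl2 and Cpeb2. Bcl2, the survival protein, was at 384, 276 and 261 in MLL-AF9 and 144, 145 and 43.96 in MLL-NRIP3 (2.76-fold lower, adjusted p = 0.0136), with array 3 the lowest, and its call was lost without MLL-AF9 array 1 (adjusted p = 0.0549). Cdk6 was higher by less than 2-fold (log2 0.78, adjusted p = 0.0012). Mef2c, a target tied to MLL-AF9 leukemia stem cells, was at 745, 666 and 733 against 937, 674 and 9.56: 2 MLL-NRIP3 arrays lay at the MLL-AF9 level and array 3 at the floor (adjusted p = 0.328).

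Genes of MLL complexes and fusion partners changed at about the rate of all genes. Of 31 tested, none rose and 2 fell, 6.45% beside 5.81% of all genes. Without the fold limit 4 were called higher and 10 lower, beside 25% and 19.8% of all genes. Aff3, a partner from the family of elongation complex scaffolds, was at 162, 67.5 and 94.4 in MLL-AF9 and 25.3, 20.9 and 10.9 in MLL-NRIP3 (3.42-fold lower, adjusted p = 0.00189). A further Aff3 probe set did not pass (log2 −0.12, adjusted p = 0.22 among probe sets). Nrip1, a nuclear receptor corepressor, was at 58.5, 76.2 and 59.1 against 6.64, 6.86 and 6.26 (3.55-fold lower, adjusted p = 3.33e-05). The groups were separate for both.

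Immediate early and handling stress genes were on balance higher in MLL-NRIP3. The list joins immediate early genes, which stimulation and tissue handling both induce, with stress genes such as Hspa1b. Of 35 tested, 10 rose and 1 fell, 31.4% beside 5.81% of all genes, and the median log2 difference of the 37 measured was 0.32. Fos, the AP-1 subunit, was at 129, 66.2 and 106 in MLL-AF9 and 702, 596 and 644 in MLL-NRIP3 (5.84-fold higher, adjusted p = 0.000112). Its relative Fosb was at 4.97, 4.97 and 5.37 against 93.1, 56.3 and 88.7 (4.45-fold), from the floor in MLL-AF9. Egr1, Dusp1 and Klf2 were the other large increases, and Jund, Zfp36, Ppp1r15a, Ier3 and Junb rose 3.58-, 2.42-, 2.36-, 2.35- and 2.15-fold. A further Jund probe set was called lower. Btg2, an antiproliferative gene, was at 178, 179 and 154 against 45.1, 26.5 and 30.9 (3.75-fold lower). Without MLL-AF9 array 2 another Btg2 probe set became the brightest and gave −0.87. The heat shock gene Hspa1b was lower by less than 2-fold (log2 −0.85). The part of the Gapdh ratios and hybridization controls that set MLL-NRIP3 arrays 1 and 2 apart was not tested. With array 3 as the only MLL-NRIP3 array 8 genes rose and 2 fell, and without it 11 rose and 1 fell.

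The promoter of Dusp1 is shown because it holds the cAMP response element TGACGTCA, in capitals. It lies at chr17:26508423-26508722 on the minus strand of GRCm38.p6, from RefSeq, again 250 bases before to 50 after the gene start.
Dusp1: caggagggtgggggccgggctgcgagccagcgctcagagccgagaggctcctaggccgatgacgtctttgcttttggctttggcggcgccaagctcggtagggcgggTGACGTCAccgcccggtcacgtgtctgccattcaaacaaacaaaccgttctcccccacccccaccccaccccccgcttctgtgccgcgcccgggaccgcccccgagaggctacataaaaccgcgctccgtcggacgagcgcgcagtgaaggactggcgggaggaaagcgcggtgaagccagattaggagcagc
These letters, which read the same on both strands, occurred in 2 of 17 class II and dendritic cell genes and in 1.79% of all promoters. Among the 33 immediate early and handling stress genes with a promoter in the table, 3 held them, Btg2, Dusp1 and Ppp1r15a. Of the 3, Dusp1 and Ppp1r15a rose and Btg2 fell.

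Interferon response genes were lower in MLL-NRIP3, mostly by less than 2-fold. Of 39 tested, 23 were called lower and 2 higher, beside 19.8% and 25% of all genes, and the median log2 difference of the 40 measured was −0.38. At least 2-fold, 6 fell and none rose, 15.4% beside 5.81% of all genes. Of these 6, 3 were Trim genes that lie near each other, with Trim34a at 218, 210.4 and 222 in MLL-AF9 and 4.86, 6.40 and 7.79 in MLL-NRIP3, Trim30d at 189, 181 and 157 against 4.22, 5.70 and 5.58, and Trim12a at 124, 101 and 107 against 3.80, 2.72 and 3.18. These 3 were at the floor on all MLL-NRIP3 arrays and passed the filter on dim genes through their MLL-AF9 values. As members of a family of near-identical genes they may share signal. The others were Usp18, which dampens interferon signalling (2.39-fold lower), Ifi27 (2.30-fold) and Ifi47 (2.16-fold). Ifit1 and Mx1 were lower by less than 2-fold (log2 −0.62 and −0.82), and Irf7 and Stat2 did not pass (adjusted p = 0.222 and 0.262). Tap1, which feeds peptides to MHC class I, was called higher (log2 1.00, adjusted p = 0.000677). On the deposited values without normalization the list had 12 calls higher and 9 lower, and its median of −0.01 lay 0.26 below that of all genes measured.

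Few cell cycle genes changed at least 2-fold, 5.56% of G1/S and 2.63% of G2/M genes tested, beside 5.81% of all genes. Of 36 G1/S and DNA replication genes tested, 2 rose, E2f2 (2.50-fold) and the histone chaperone subunit Chaf1b (2.31-fold, with 1 further probe set called lower), and none fell. Of 38 G2/M and mitosis genes tested, Spc24, a kinetochore protein, was the 1 that fell (410.1, 386 and 347 against 144, 144 and 138, 2.51-fold). Mki67 was at 1575 ± 60.4 and 1105 ± 55.2 (log2 −0.51, adjusted p = 0.00132). Without the fold limit 13 G2/M genes were called lower and 3 higher, beside 19.8% and 25% of all genes. With MLL-NRIP3 array 3 as the only MLL-NRIP3 array, 10 were called higher and 8 lower. Without normalization, where the median of all genes tested moved to 0.47, 21 were called higher and 1 lower, and the list's median of 0.44 lay 0.19 above that of all genes measured.

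The same comparison was made in the 6 Rictor-deleted arrays, which share no array with the controls. There 7002 of 12575 genes tested (55.7%) were called, and 7.53% at least 2-fold. Of the 729 genes changed at least 2-fold in controls, 727 were tested in the deleted arrays: 685 had the same direction, 647 were called in that direction, 454 of them at least 2-fold, and 19 were called the opposite way. The share of all genes tested that kept their direction was not computed, so these counts have no background beside them. Deposited medians in the deleted arrays were again apart, at 8.20 to 8.35 in MLL-AF9 and 13.7 to 14.2 in MLL-NRIP3. Model and array set therefore cannot be told apart there either. The deleted groups also differed in sex-linked genes, with a log2 difference of 4.41 for Xist and −3.47 for Eif2s3y, so sex and fusion cannot be told apart in them. In these arrays Dlk1 differed by 6.13 ± 0.66 and Satb1 by −4.03 ± 0.09 (log2 ± SE), beside 5.497 and −4.29 in the controls. List medians in the deleted arrays were −0.33 for monocyte and macrophage genes, −0.48 for B lineage genes and −0.25 for interferon response genes. They were 0.80 for immediate early and handling stress genes, and −2.35 for mature neutrophil genes, where the controls had −0.16.

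Of the 30 genes named by size, 8 differed between genotypes by the interaction test over all 12 arrays, which called 614 of 12571 genes (4.88%). The 30 were chosen by the size of their control difference, which enters the interaction, so these shares cannot be compared. Irx5 had the largest change of the 8: its log2 difference was 3.46 in controls and −0.31 ± 0.41 in deleted arrays. Trim30d and Trim34a fell by less in the deleted arrays (−0.55 and −1.42), and Olfm4 by more (−5.36). Genes of the lists above that also passed the interaction test included Cd34, with −1.43 in controls and 0.44 in deleted arrays (interaction adjusted p = 0.00528), and Cpa3, with −1.98 and 0.93 (interaction adjusted p = 0.0197). Cd177 turned from 1.45 to −1.97 (interaction adjusted p = 0.000126). The transcription factor Runx1 was −1.22 in controls and −0.09 in deleted arrays, Hoxa5 1.88 and 3.49, and Meis1 0.43 and 1.38, with interaction adjusted p-values of 0.00734, 0.00255 and 0.0368.

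**Figure D4:**
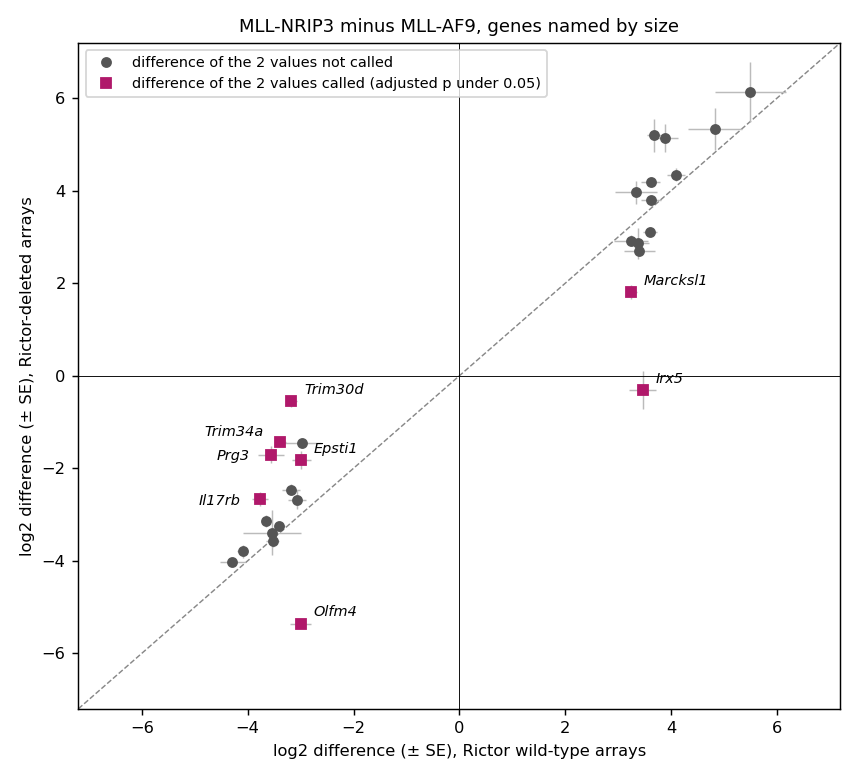
Log2 difference between MLL-NRIP3 and MLL-AF9 (± SE) in Rictor wild-type arrays (horizontal) and Rictor-deleted arrays (vertical) for 29 of the 30 genes named by size; the dashed line marks equal values and squares the genes whose values differed between genotypes (adjusted p under 0.05). Of these, Irx5 lies near 0 on the vertical axis, at −0.31, against 3.46 on the horizontal one.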

How the data were processed

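The 12 Affymetrix arrays gave values for 45101 probe sets as a linear intensity, as the authors deposited them, and the method of summarising and scaling them is not stated in the labels used here. Of the probe sets, 34958 carried 1 gene symbol, 932 several and 9211 none in the platform annotation, and a gene was taken from its brightest probe set with 1 symbol. The values of the 6 arrays were raised by 16, log2 transformed and quantile normalized together, and intensities printed are back-transformed from that scale. Genes below the 40th percentile of all probe sets (intensity 7.48) were left out of the tests. The filter used the mean of the 6 arrays, so a gene at the floor in 1 model could pass it through the other. The 12551 genes left were tested with limma 3.58.1 in R 4.3.3 (lmFit and eBayes with trend, 4 residual degrees of freedom, Benjamini-Hochberg adjustment), and every adjusted p in the text comes from limma. For a single gene an exact permutation test of 3 against 3 cannot go below 0.1. The number of arrays limits the precision. The same steps were applied to the Rictor-deleted arrays, and the interaction was fitted over all 12 arrays. On simulated arrays with 200 changed genes among 12551, limma recovered 56, 80, 94 and 100% of those changed by 0.5, 1, 2 and 3 log2 units, and 27 of its 192 calls (14.1%) were false. Far fewer genes changed there than the 44.9% called here, and the simulated noise was independent between genes. These rates therefore do not describe the calls above.

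The members and gene lists were chosen with earlier results of these data known. Named genes were the 15 largest increases and decreases whose groups did not overlap, and the 2-fold members of the lists, and 1 of the 15 increases is not reported here. Other genes named, including those that did not pass, were chosen after their values were seen. Alternatives covered scaling, pseudocount, filter, probe set rule, moderation, array weights, the replicate block, the threshold and leaving out arrays. Same-numbered arrays of the 2 models did not deviate together (correlations of −0.03, −0.09 and −0.09).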

Additional observations from a re-analysis of the deposited data

Results flagged for a closer look

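The difference between MLL-NRIP3 and MLL-AF9 itself differed between Rictor-deleted and Rictor wild-type arrays for 8 of the 30 genes named by size, by limma's interaction test with Benjamini-Hochberg adjustment over 12571 genes, of which 4.88% passed. Because the 30 were chosen by the size of their control difference, which enters the interaction, their share cannot be compared with that of all genes. Values are log2 units, the deleted arrays' difference minus that of the controls. Irx5 gave −3.76 (adjusted p = 0.00217), from 3.46 in controls to −0.31 in deleted arrays. Marcksl1 gave −1.44 (adjusted p = 0.00118), from 3.25 to 1.80. Olfm4 fell further in the deleted arrays, at −5.36 against −2.996, a difference of −2.34 (adjusted p = 0.000138). The remaining genes fell by less in the deleted arrays. Trim30d gave 2.60 (adjusted p = 6.52e-06) and Trim34a 1.94 (adjusted p = 1.93e-05), with −0.55 and −1.42 in the deleted arrays. Prg3 gave 1.83 (adjusted p = 0.00921), Epsti1 1.17 (adjusted p = 0.0433) and Il17rb 1.08 (adjusted p = 0.0194). The deleted arrays of the 2 models also differed in sex-linked genes, and the part of this in these values was not tested. Groups of 3 arrays were not searched for outliers.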

How the results depend on the processing

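Without normalization 9379 genes were called, 8833 higher and 546 lower, of which 1689 (1567 and 122) at least 2-fold. Of all calls, 55.8% were higher after quantile normalization, 41.6% after median scaling and 94.2% without normalization, where the median over genes tested was 0.47. With a pseudocount of 1 the 2-fold calls numbered 1504 (893 higher, 611 lower), with 64 they numbered 269 (139 and 130), and after averaging the probe sets of each gene 453 (262 and 191). At an adjusted p of 0.01, 3323 genes were called (1900 and 1423). With the fold limit added, 729 were (401 and 328). Testing each probe set gave 10232 calls. Leaving out 1 array at a time gave 4009 to 6185 calls, 2301 to 3452 of them higher and 1654 to 2733 lower, the least without MLL-AF9 array 2, and 691 to 824 at least 2-fold. In the deleted arrays such counts were 5634 to 7889. With the replicate block 4831 genes were called (2708 higher, 2123 lower), 743 at least 2-fold, and 6884 in the deleted arrays, and no call of the 127 genes followed through the alternatives changed. Same-numbered arrays were not paired. Of the 729 genes, at least 726 kept their direction under each alternative, except that 687 of 687 did where a filter at the 60th percentile left the others untested. Xist reversed without normalization, from −0.09 to 0.37 (adjusted p = 0.00904). Among the 127 genes followed, the calls of Acta2, Bcl2, Csf1r, Fcnb, Ighm, Mecom, Mpeg1, Myc and Osmr ended when some single array was left out. Other genes named in the text were not followed in this way. Dim signals near the floor limit fold changes, and no depth applies to arrays.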

Other observations

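Genes that changed at least 2-fold in the same direction lay next to each other in places, among the 12533 tested genes with a position. Runs of 3 or more consecutive tested genes numbered 9, of which 5 were higher and 4 lower in MLL-NRIP3, and they held 29 genes. These runs were searched for after the values were seen, and no test was made. On chromosome 12, Dlk1 and Meg3 were followed by the imprinted noncoding RNAs Rian (log2 2.91) and Mirg (1.70), both near the floor in MLL-AF9. On chromosome 11, the chemokines Ccl3 (1.40) and Ccl4 (1.76) and the protease inhibitors Wfdc17 (2.96) and Wfdc18 (1.88) were all higher. Wfdc17 was bright, at 445 ± 73.2 in MLL-AF9 and 3566 ± 579 in MLL-NRIP3 (mean ± SD, n = 3 each). On chromosome 13, Il6st and Ddx4 flanked the interleukin 31 receptor gene Il31ra (2.41). On chromosome 8, the clotting factor genes F7 (1.497) and F10 (1.43) were higher with Mcf2l (1.10), and on X Gprasp2 (2.05), Bhlhb9 (1.06) and Tceal8 (2.15) were higher.

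The runs that were lower included Zcchc2 (−1.69), the Akt phosphatase gene Phlpp1 (−1.81) and Bcl2 on chromosome 1, and Il17rb with Chdh (−2.69), of choline breakdown, and the calcium channel gene Cacna1d (−1.19) on chromosome 14. The remaining runs were the complement genes C1qa, C1qb and C1qc on chromosome 4, and Trim34a, Trim5 (−1.96) and Trim12a on chromosome 7.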
